A study of Mus musculus with 8 samples.

Results

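Integrins are the receptors by which keratinocytes (KCs), the epithelial cells of the epidermis, hold on to the matrix beneath them, and the genes examined were those of the 10 integrin subunits that KCs are known to make: Itga2, Itga3, Itga5, Itga6 and Itgav for the alpha chains, and Itgb1, Itgb4, Itgb5, Itgb6 and Itgb8 for the beta chains. They were taken by symbol from the deposited gene tables, in a list chosen with earlier results of these data known. They are 10 of the 41457 genes listed. All 10 passed the filter on low counts that left 12590 genes for testing. The study prepared primary KCs from tail skin of adult wildtype C57BL/6 mice (C57BL/6J in its text) and sequenced their poly(A) RNA after 1 week or 3 weeks of culture, with 4 samples at each time. No sample was treated, and both groups grew without serum in low-Ca medium and were passaged when nearly confluent, so culture time is the only difference the labels give. The study speaks of 4 independent batches and says that KCs of the same batch were grown for either time, but the labels do not say which sample of 1 week shares a batch with which of 3 weeks. The animals behind each batch and the number of passages are not given in the sources used here. The p-values therefore measure the spread between these samples. The comparison asks how the RNA of each subunit, and the balance between partner subunits, differed between shorter and longer culture.

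An integrin is a pair of 1 alpha and 1 beta chain, and the pair decides which matrix protein is bound. The β1 chain joins α2 as a collagen receptor, α3 as a receptor for laminin of the basement membrane, and α5 as the classical fibronectin receptor. The β4 chain pairs only with α6, which can also join β1, and α6β4 anchors basal KCs through hemidesmosomes, while αv joins β5, β6 or β8 in receptors for vitronectin, fibronectin and the latent form of TGF-β. Resting epidermis is known for α2β1, α3β1, α6β4 and αvβ5 in its basal layer, and α5β1 and αvβ6 are known from wounded epidermis and from KCs in culture.

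The rise described here rests on 4 members and the fall on 2, and the promoters of those with an entry in the RefSeq table (GRCm38.p6) are shown so that their sequence can be read beside their behaviour. The table holds 8 of the 10 members with 10 promoters between them, and has no entry for Itga6 or Itgb4. Each line gives the 250 bases before the RefSeq start, 5′ to 3′ on the strand of the gene. The Itgb8 window lies inside the gene as the deposited tables place it, so it is not upstream of the gene used for counting, and for Itga5 the bases after the RefSeq start were not found in the gene's GENCODE M21 transcripts. Capitals mark matches, on either strand, to a GC box (GGGCGG), to the AP-1 motif (TGANTCA) or to the TEAD motif (CATTCC).
Itga5 (chr15:103366792-103367041, minus strand): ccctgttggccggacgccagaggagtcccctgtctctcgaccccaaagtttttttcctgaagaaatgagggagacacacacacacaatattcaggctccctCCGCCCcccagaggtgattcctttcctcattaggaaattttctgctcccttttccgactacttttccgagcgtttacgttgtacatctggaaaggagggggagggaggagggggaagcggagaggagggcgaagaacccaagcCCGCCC
Itgav (chr2:83724147-83724396, plus strand): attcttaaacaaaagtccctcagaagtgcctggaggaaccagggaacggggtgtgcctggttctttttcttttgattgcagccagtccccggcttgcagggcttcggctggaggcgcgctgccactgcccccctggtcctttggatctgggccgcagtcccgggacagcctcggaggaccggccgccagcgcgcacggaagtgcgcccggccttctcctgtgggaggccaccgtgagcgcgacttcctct
Itgb1 (chr8:128685404-128685653, plus strand): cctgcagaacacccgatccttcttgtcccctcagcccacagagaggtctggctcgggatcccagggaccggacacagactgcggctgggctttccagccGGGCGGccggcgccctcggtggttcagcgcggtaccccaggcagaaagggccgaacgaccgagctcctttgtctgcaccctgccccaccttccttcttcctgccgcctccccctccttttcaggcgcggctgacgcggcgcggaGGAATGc
Itgb8 (chr12:119238277-119238526, minus strand): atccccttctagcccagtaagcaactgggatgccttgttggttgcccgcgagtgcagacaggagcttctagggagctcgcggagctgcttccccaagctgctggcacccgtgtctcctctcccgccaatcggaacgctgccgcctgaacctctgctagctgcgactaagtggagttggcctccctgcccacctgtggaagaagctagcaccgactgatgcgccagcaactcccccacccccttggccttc
Itga2 (chr13:114932101-114932350, minus strand): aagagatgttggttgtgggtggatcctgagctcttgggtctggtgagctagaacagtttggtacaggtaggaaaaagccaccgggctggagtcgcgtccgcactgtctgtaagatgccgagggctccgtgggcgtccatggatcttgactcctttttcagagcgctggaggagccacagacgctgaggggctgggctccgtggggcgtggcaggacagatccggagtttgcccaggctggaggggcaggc
The Itga5 promoter held 2 GC boxes and the Itgb1 promoter held 1 GC box and 1 TEAD match. None of the 3 motifs was found in the windows of Itgav, Itgb8 or Itga2. Over all 32851 promoters of the table a GC box was found in 32.7%, an AP-1 match in 6.75% and a TEAD match in 12.6%. Over the 12492 promoters of tested genes the shares were 57.9%, 4.76% and 10.9%. The 5 sequences ranged from 55.6% G and C in Itga5 to 68% in Itgb1, against a median of 60% for promoters of tested genes. A match is only a run of letters and says nothing of binding.

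The samples held 13896807 to 20026084 exon reads at 1 week (median 17748930) and 14096649 to 18127283 at 3 weeks (median 15938540). The 10 members took between 0.482% and 0.643% of these reads at 1 week, and between 0.377% (replicate 3) and 0.805% (replicate 1) at 3 weeks. The 4 samples of 3 weeks thus spread more widely than those of 1 week, and replicate 3 also had the lowest scaling factor, 0.853 against 0.965 to 1.07 in the others. Of the 8 basal KC markers Krt5 was lower at 3 weeks and the other 7 were not called. Krt5, Krt14, Sfn and Perp carried most of their summed level, Krt15 was at no more than 2.47 RPKM in any sample, and the sum was 14132 to 16800 RPKM at 1 week and 9139 to 10477 at 3 weeks. RPKM is the number of exon reads scaled to the kilobases of exon and to the reads of the sample. The sums over 8 fibroblast markers (4.00 to 6.98 RPKM at 1 week, 2.84 to 6.14 at 3 weeks), 6 melanocyte markers (3.25 to 21.0 and 1.28 to 5.60), 8 immune cell markers (1.65 to 4.94 and 2.05 to 4.55, with Cd207 at 0 reads) and 5 endothelial markers (0.411 to 0.568 and 0.275 to 0.469) were small beside this. The exception was the smooth muscle list, whose 3 tested genes Acta2, Cnn1 and Actg2 all rose, with a summed level over the 5 genes of 140 to 367 RPKM at 1 week and 1126 to 2723 at 3 weeks. Its other genes were near 0, Myh11 at 0.0290 and then 0.778 RPKM and Des at 0.132 and then 0.0851 RPKM on average. In bulk RNA a change in the share of a cell type and a change in RNA per cell cannot be told apart, and the part of these markers in the results below was not tested.

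**Figure D1:**
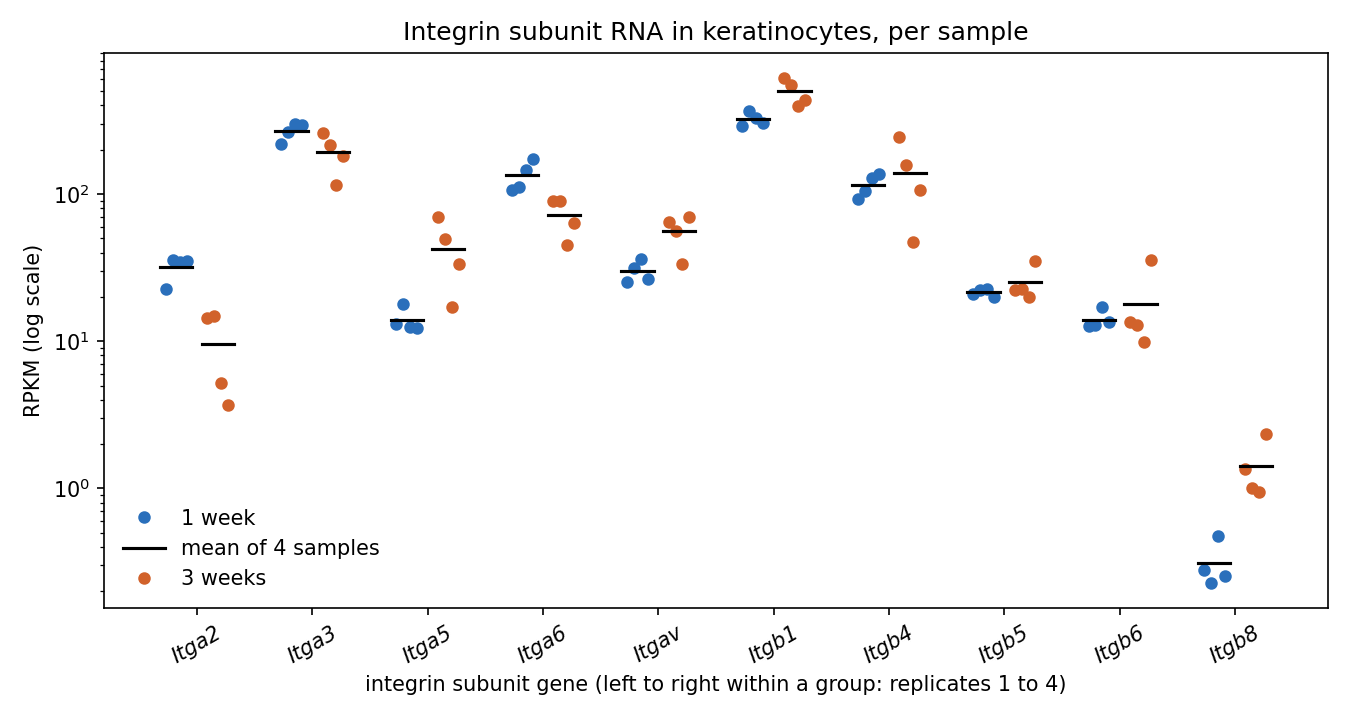
RPKM (log axis) of the 10 integrin subunit genes in the 4 samples of 1 week (blue) and the 4 samples of 3 weeks (orange), with replicates 1 to 4 from left to right and the mean as a bar. All 4 samples of 3 weeks lie below those of 1 week for Itga2 and Itga6 and above them for Itgb1 and Itgb8, and the points of 3 weeks are the more scattered for most genes.

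With longer culture, 4 of the 10 members rose and 2 fell, while 4 did not pass the test (edgeR's quasi-likelihood test on exon reads, adjusted p under 0.05 over all tested genes). That is 60% of the members, where 32.8% of all tested genes were called, 15.7% as higher and 17% as lower. The members were chosen with earlier results of these data known, so this share is a description. Itga5, Itgav, Itgb1 and Itgb8 rose, and Itga2 and Itga6 fell. The median log2 fold change, 3 weeks over 1 week, was 0.45 for the members and 0.03 for all tested genes. In RPKM as deposited, the groups did not overlap for 2 members that were higher at 3 weeks, Itgb1 and Itgb8, and for 2 that were lower, Itga2 and Itga6, where 10.8% and 26.2% of tested genes behaved so (37% in either direction). RPKM is not corrected for the composition of the library, and on the log2(RPKM + 0.1) scale the median of all genes lay at -0.16, so rises read from RPKM are smaller than those of the fit and falls are larger.

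**Figure D2:**
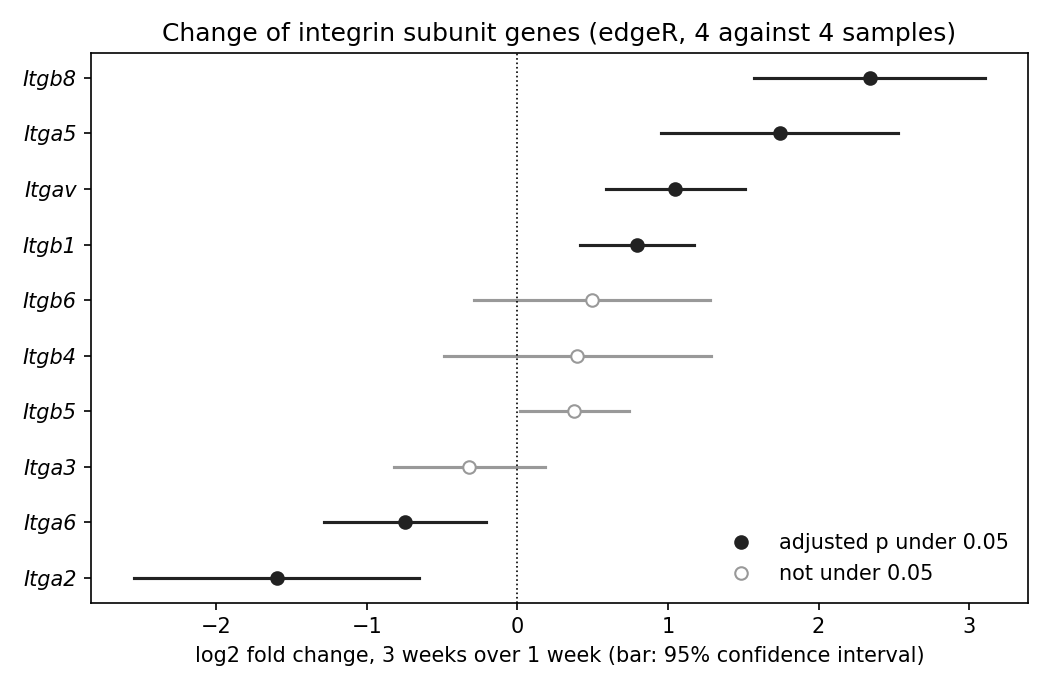
Log2 fold change of each integrin subunit gene, 3 weeks over 1 week, from edgeR with its 95% confidence interval (4 against 4 samples). Filled points have an adjusted p under 0.05, from Itgb8 at 2.34 to Itga2 at -1.60, and open points do not.

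Itgb1, the beta chain shared by the collagen, laminin and fibronectin receptors (ENSMUSG00000025809, chr8:128685654-128733200, plus strand), was the most abundant member per length at both times. In the order of the replicate numbers, its RPKM was 288, 364, 325 and 304 at 1 week, and 610.2, 549.8, 398 and 431 at 3 weeks. Every sample of 3 weeks was above every sample of 1 week. The mean went from 320.4 ± 32.9 to 497 ± 99.4 (SD, n = 4 each), and the log2 fold change was 0.79 ± 0.17 (SE), or 1.73-fold (95% confidence interval 1.33 to 2.25, adjusted p = 0.00698, edgeR).

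Itga5, which gives Itgb1 its fibronectin specificity (ENSMUSG00000000555, chr15:103344286-103366763, minus strand), was among the scarcest members at 1 week. It stood at 13.2, 17.9, 12.4 and 12.3 RPKM in the samples of 1 week and at 69.4, 49.4, 17.1 and 33.3 in those of 3 weeks. Replicate 3 of 3 weeks was the low one and fell just under replicate 2 of 1 week, while in CPM (exon reads relative to the TMM-scaled library size) the groups did not overlap. The mean rose from 13.9 ± 2.65 to 42.3 ± 22.4 RPKM (SD, n = 4 each), with a log2 fold change of 1.74 ± 0.35 (SE) and a fold of 3.34 (95% confidence interval 1.93 to 5.78, adjusted p = 0.00563, edgeR).

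Itgav, the alpha chain of the RGD-binding receptors with β5, β6 and β8 (ENSMUSG00000027087, chr2:83724397-83806916, plus strand), also rose. Its RPKM was 25.1, 31.4, 36.2 and 26.6 at 1 week, and 64.0, 55.9, 33.3 and 69.7 at 3 weeks. Replicate 3 of 3 weeks lay within the range of 1 week and the other 3 lay above it, and after TMM scaling the groups did not overlap. The mean rose from 29.8 ± 5.05 to 55.7 ± 16.0 RPKM (SD, n = 4 each), a log2 fold change of 1.05 ± 0.21 (SE) or 2.07-fold (95% confidence interval 1.5 to 2.85, adjusted p = 0.00498, edgeR). A predicted gene on the opposite strand, Gm13684, had 17 reads over all samples, against at least 5046 reads per sample on Itgav.

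Itgb8, an αv partner known for activating latent TGF-β (ENSMUSG00000025321, chr12:119158022-119238802, minus strand), had the largest rise from the lowest level. It was read at 0.280, 0.228, 0.479 and 0.256 RPKM at 1 week and at 1.35, 1.01, 0.952 and 2.34 RPKM at 3 weeks. The groups were well apart, but the gene rested on only 50 to 380 exon reads per sample. Its mean went from 0.311 ± 0.114 to 1.41 ± 0.642 RPKM (SD, n = 4 each), with a log2 fold change of 2.34 ± 0.34 (SE) and a fold of 5.06 (95% confidence interval 2.97 to 8.60, adjusted p = 0.00129, edgeR). On the log2(RPKM + 1) scale the log2 fold change of this low gene was 0.85 (limma).

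The fall was led by Itga2, the alpha chain of the collagen receptor α2β1 (ENSMUSG00000015533, chr13:114833081-114932100, minus strand). Its RPKM was 22.8, 35.6, 34.7 and 35.0 at 1 week, and 14.4, 14.8, 5.23 and 3.68 at 3 weeks. Among the samples of 3 weeks, replicates 1 and 2 were close together and replicates 3 and 4 much lower, and all 4 were below the 1-week samples. The mean fell from 32.0 ± 6.19 to 9.52 ± 5.88 RPKM (SD, n = 4 each), a log2 fold change of -1.60 ± 0.42 (SE). Expression was 3.03-fold higher at 1 week (adjusted p = 0.0181, edgeR), and the adjusted p was 0.0576 in a fit of the 3 preparations whose number occurs at both times, with the preparation as a block (range over all alternatives 0.000807 to 0.0576).

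Itga6, the alpha chain of the hemidesmosomal receptor (ENSMUSG00000027111, chr2:71745616-71858416, plus strand), fell less. It stood at 105.5, 112, 146 and 172 RPKM at 1 week and at 89.6, 89.0, 44.9 and 63.8 RPKM at 3 weeks. The groups did not overlap, although replicates 1 and 2 of 3 weeks came close to the lowest samples of 1 week. The mean fell from 134 ± 31.1 to 71.8 ± 21.6 RPKM (SD, n = 4 each), a log2 fold change of -0.75 ± 0.24 (SE), with the 1-week level 1.68-fold higher (adjusted p = 0.0391, edgeR). This call did not survive the removal of replicate 3 (adjusted p = 0.0883, edgeR) or replicate 4 (0.107) of 1 week, or of replicate 2 (0.0503), 3 (0.0509) or 4 (0.0671) of 3 weeks. It was also lost with the preparation as a block (0.1), which left 0 members called as lower. The direction remained a fall in each of these fits. Gm17250, a predicted gene on the opposite strand, had 0 reads.

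Itgb4, the partner of α6 in hemidesmosomes (ENSMUSG00000020758, chr11:115974709-116008412, plus strand), did not follow Itga6. Its RPKM was 92.5, 104.6, 129 and 137 at 1 week, and 245, 156, 47.5 and 106 at 3 weeks. The samples of 3 weeks lay on both sides of those of 1 week, replicate 1 being the highest of all 8 and replicate 3 the lowest. The means were 116 ± 20.7 and 139 ± 83.7 RPKM (SD, n = 4 each), and the log2 fold change of 0.40 had a 95% confidence interval from -0.49 to 1.29 (adjusted p = 0.474, edgeR). Without replicate 1 of 3 weeks the log2 fold change was -0.019. Its share of uniquely mapped reads was 86.2%, against at least 98.8% for the other members, and B230344G16Rik on the opposite strand had 36 reads over all samples.

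Itga3, the alpha chain of the laminin receptor α3β1 (ENSMUSG00000001507, chr11:95044474-95076801, minus strand), was the most abundant alpha gene at both times. It stood at 218, 261, 297 and 294 RPKM at 1 week and at 261, 216, 115 and 181 RPKM at 3 weeks. The ranges overlapped, with replicate 3 of 3 weeks far below the rest. The log2 fold change was -0.32 with a 95% confidence interval from -0.82 to 0.18 (adjusted p = 0.299, edgeR).

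Itgb5, the αv partner in the vitronectin receptor (ENSMUSG00000022817, chr16:33829665-33949338, plus strand), varied least of the members relative to its mean at 1 week, but not at 3 weeks. Its RPKM was 21.0, 22.3, 22.6 and 20.1 at 1 week, and 22.3, 22.8, 19.9 and 35.2 at 3 weeks. Apart from replicate 4 of 3 weeks the 8 values lay close together. In CPM the groups did not overlap, with at most 77.6 at 1 week and at least 84.8 at 3 weeks. The share of all tested genes without overlap in CPM was not counted. Its log2 fold change of 0.38 had a 95% confidence interval from 0.02 to 0.74 and did not pass the adjusted threshold (adjusted p = 0.101, edgeR).

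Itgb6, the epithelial αv partner (ENSMUSG00000026971, chr2:60598292-60722643, minus strand), stood at 12.7, 12.9, 16.9 and 13.5 RPKM at 1 week and at 13.4, 12.8, 9.95 and 35.5 RPKM at 3 weeks. Replicate 4 of 3 weeks lay above every other sample and the other 3 overlapped the 1-week range. The log2 fold change was 0.50 with a 95% confidence interval from -0.29 to 1.28 (adjusted p = 0.304, edgeR), and -0.036 without replicate 4 of 3 weeks. Intronic reads made up 9.49% of the reads on this gene at 1 week and 14.1% at 3 weeks, far more than on the other members, where the share was 1.59% or less at both times.

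The names of the deposited files carry a preparation number, and 3 of these numbers (46, 49 and 90) occur at both times. Within preparations 46, 49 and 90 the log2 ratio of CPM, 3 weeks over 1 week, was 2.49, 2.12 and 1.53 for Itga5. For Itgav it was 1.45, 0.76 and 1.48, and for Itgb1 1.18, 0.89 and 0.60. Thus the sign was the same in each preparation for these genes. Itgb8 gave 2.32, 1.18 and 3.23, Itga2 gave -0.57, -1.10 and -3.15, and Itga6 gave -0.14, -0.58 and -1.34. For all 6 called members the sign was shared by the 3 preparations. The groups of these genes did not overlap in CPM, so any pairing of samples gives the same sign and this adds no support. The size of the fall in Itga2 and Itga6 was unequal, being smallest in preparation 46 and largest in preparation 90. Of the members that were not called, Itgb4, Itga3 and Itgb6 changed sign between preparations, and Itgb5 did not. Itgb4 gave 1.5, 0.40 and -0.27, Itga3 gave 0.36, -0.33 and -0.60, Itgb6 gave 0.17, -0.27 and 1.49, and Itgb5 gave 0.19, 0.14 and 0.90.

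Ranked by mean RPKM, a level per exon length, the order at 1 week was Itgb1, Itga3, Itga6, Itgb4, Itga2, Itgav, Itgb5, Itgb6, Itga5 and Itgb8. The ranges of Itga2 and Itgav and of Itgb6 and Itga5 overlapped, and the first of each pair was the higher in only 2 of 4 samples. The ranges of Itgb1 and Itga3 and of Itga6 and Itgb4 overlapped too, but the first was the higher in 4 of 4 samples, and the remaining neighbours did not overlap. At 3 weeks the order was Itgb1, Itga3, Itgb4, Itga6, Itgav, Itga5, Itgb5, Itgb6, Itga2 and Itgb8. There the ranges of all neighbours overlapped but for Itgb1 over Itga3 and Itga2 over Itgb8, although Itga3 was above Itgb4 and Itgb4 above Itga6 in 4 of 4 samples. Itga2 had moved from the fifth place to the ninth, and Itga5 from the ninth to the sixth.

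The change of order was clearer when each alpha gene was expressed as its share of the summed RPKM of the 5 alpha genes in the same sample. Itga2 made up 6.70% ± 0.780 at 1 week and 2.46% ± 1.04 at 3 weeks (SD, n = 4 each, as for all shares here). Itga6 made up 27.9% ± 3.08 and 19.5% ± 1.63. Itga3 stayed the main alpha gene, with 56.2% ± 1.18 and 52.0% ± 1.10. Against these falling shares, Itga5 went from 2.99% ± 0.802 to 10.7% ± 2.61. Itgav went from 6.30% ± 0.928 to 15.3% ± 3.23. For each of the 5 alpha genes the shares of the 2 times did not overlap, and for Itga3 they ran from 54.4% to 57.1% at 1 week and from 50.8% to 53.3% at 3 weeks. Shares of 1 sum are tied to each other, so a rise in 1 gene lowers the share of the rest. Itga3 itself was not called, and its RPKM overlapped between the times. There is no like share over all tested genes to set beside these.

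**Figure D3:**
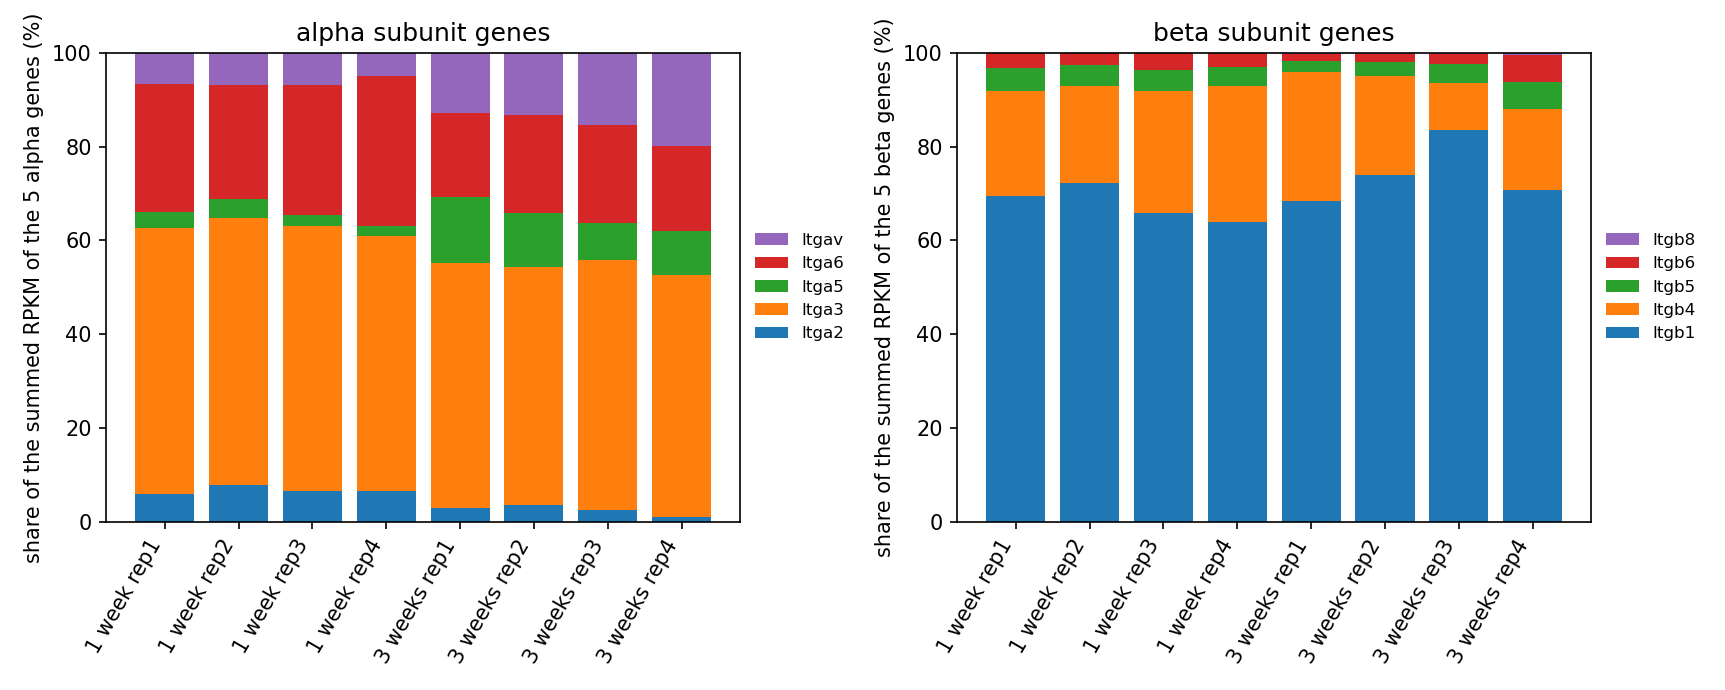
Share (%) of each gene in the summed RPKM of the 5 alpha genes (left) and of the 5 beta genes (right), 1 bar per sample. Itga5 and Itgav together fill more of the alpha bars at 3 weeks, at the cost of Itga2, Itga6 and Itga3, and Itgb1 is the largest part of every beta bar.

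Among the beta genes Itgb1 took 67.9% ± 3.67 of the summed RPKM at 1 week and 74.2% ± 6.68 at 3 weeks. Itgb4 took 24.5% ± 3.66 and 19.0% ± 7.30. The ranges of both genes overlapped between the times. Itgb5 made up 4.57% and 3.88%, Itgb6 2.97% and 2.78%, and Itgb8 0.0659% and 0.218% on average, and of these only the values of Itgb8 were clear of each other.

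Ratios between partner genes within a sample do not depend on the depth or the scaling of the library, and they are given as a description without a test. Itgb4 to Itga6, the partners of the hemidesmosome, stood at 0.877, 0.937, 0.886 and 0.795 in the samples of 1 week and at 2.73, 1.76, 1.06 and 1.66 in those of 3 weeks. In total exon reads, the 1-week ratios were all below 1 and narrowly spread, and those of 3 weeks were all above 1. The mean ratio was 0.874 ± 0.0589 at 1 week and 1.80 ± 0.693 at 3 weeks (SD, n = 4 each), a log2 difference of 0.97 where the SD within groups was 0.40. Every sample of 3 weeks was thus above every sample of 1 week in this ratio, although Itgb4 alone did not pass the test. Of the reads on Itgb4 86.2% were unique, against 99.997% for Itga6. In unique reads the log2 difference between the times was also 0.97. The side of 1 on which a ratio lies depends on the reads that were not unique, and replicate 3 of 3 weeks was near 1. Ratios per sample in unique reads are not given.

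Of the α chains that share β1, Itga2, Itga3 and Itga6 were lower relative to it at 3 weeks, while Itga5 and Itgav were higher only on average. Itga2 to Itgb1 fell from 0.0997 ± 0.0155 to 0.0180 ± 0.00863, a log2 difference of -2.60. Itga3 to Itgb1 was 0.755, 0.718, 0.913 and 0.967 at 1 week, and 0.428, 0.393, 0.288 and 0.420 at 3 weeks. These values did not overlap, and their means were 0.838 ± 0.120 and 0.382 ± 0.0642 (log2 difference -1.14). Itga6 to Itgb1 went from 0.422 ± 0.112 to 0.142 ± 0.0209 (log2 difference -1.54), again without overlap. Itga5 to Itgb1 was 0.0434 ± 0.00497 at 1 week and 0.0809 ± 0.0295 at 3 weeks, with replicate 3 of 3 weeks inside the 1-week range. Itgav to Itgb1, at 0.0931 and 0.113 on average, overlapped as well. The RPKM of Itga2, Itga3 and Itga5 was also summed, leaving out Itga6 and Itgav, which have other beta partners. This sum came to 0.880, 0.865, 1.06 and 1.12 times the RPKM of Itgb1 at 1 week. At 3 weeks it came to 0.565, 0.510, 0.345 and 0.505 times, and it does not cover all the alpha RNA that could pair with β1.

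**Figure D4:**
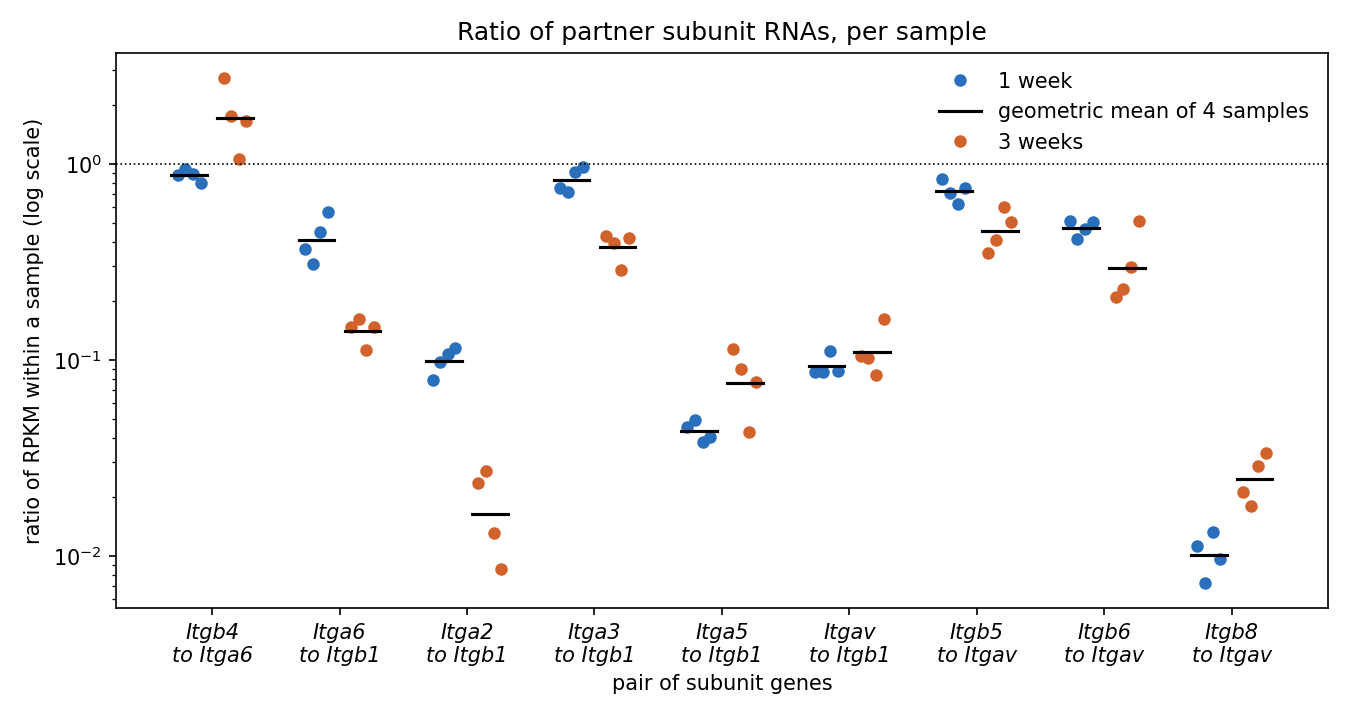
Ratio of the RPKM of 9 pairs of partner subunit genes in each sample (log axis), with the geometric mean as a bar and a dotted line at 1. In total exon reads, Itgb4 to Itga6 lies below 1 at 1 week (0.795 to 0.937) and above it at 3 weeks (1.06 to 2.73). Itga2, Itga3 and Itga6 are all lower relative to Itgb1 at 3 weeks.

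For the partners of αv the ratios also differed. Itgb5 to Itgav was 0.836, 0.709, 0.623 and 0.755 at 1 week and 0.349, 0.408, 0.599 and 0.504 at 3 weeks, on average 0.731 ± 0.0891 and 0.465 ± 0.110. The groups were apart, if only narrowly at replicate 3 of both times. Itgb8 to Itgav rose from 0.0103 ± 0.00251 to 0.0253 ± 0.00705 without overlap (log2 difference 1.29), and so remained a small fraction of Itgav. Itgb6 to Itgav, at 0.473 ± 0.0453 and 0.312 ± 0.137, overlapped through replicate 4 of 3 weeks at 0.509.

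The other 17 integrin subunit genes were nearly silent, and only 5 of them had enough reads to be tested. All 17 were under 1 RPKM in every sample, and together they came to between 0.105% and 0.284% of the summed RPKM of the 10 members. The highest were Itga8 (0.510 RPKM at 1 week and 0.423 at 3 weeks), Itga7 (0.520 and 0.267) and the platelet subunit Itga2b (0.275 and 0.190), with 0.942 RPKM for Itga7 as the highest value of any sample. The level does not set these genes apart from the member Itgb8. At 1 week Itgb8 had a mean of 0.311 RPKM, below Itga7 and Itga8, and in replicate 3 of 3 weeks it was at 0.952 RPKM. None of the 5 tested genes was called by edgeR, with 1 higher and 1 lower at an unadjusted p under 0.05, and 0 were called by DESeq2 and by limma. Itgb2l had no read in any sample, where 3 reads would give between 0.0337 and 0.0483 RPKM. Without replicate 2 of 3 weeks 1 gene, Itga1, named after its values were seen, was called as higher (edgeR).

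Among the ligands of these receptors, rises outnumbered falls. Of 22 tested ligand genes 12 rose and 1 fell, which is 59.1% of them, where 32.8% of all tested genes were called. Their median log2 fold change was 0.94. This list too was chosen with earlier results of these data known. Thbs1, a secreted matrix protein that binds several integrins, went from 196 ± 55.5 to 944 ± 486 RPKM (SD, n = 4 each, as in the values that follow), which is 2.40 on the log2 scale (adjusted p = 0.0024, edgeR). Ctgf, a matricellular ligand, went from 188 ± 59.2 to 745 ± 202 RPKM (log2 fold change 2.15, adjusted p = 0.000872, edgeR), and 66.0% of its reads were unique. Fn1, the ligand of α5β1, had the largest log2 fold change of the list, 4.78 (adjusted p = 0.00117, edgeR). Col4a1, a chain of basement membrane collagen, went from 5.60 ± 1.77 to 18.8 ± 13.6 RPKM (log2 fold change 1.88, adjusted p = 0.0348, edgeR), with overlap between the groups. Tgfb1, the cytokine whose latent form is bound by αvβ6 and αvβ8, fell from 13.6 ± 1.02 to 8.91 ± 1.85 RPKM (log2 fold change -0.46, adjusted p = 0.0336, edgeR). The count of 12 was 6 without replicate 1 of 1 week and 7 without replicate 3 or 4 of 1 week or replicate 1 of 3 weeks, and Tgfb1 was no longer called without any 1 of the 4 samples of 1 week or replicate 2 of 3 weeks, nor with the preparation or the replicate number as a block.

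**Figure D5:**
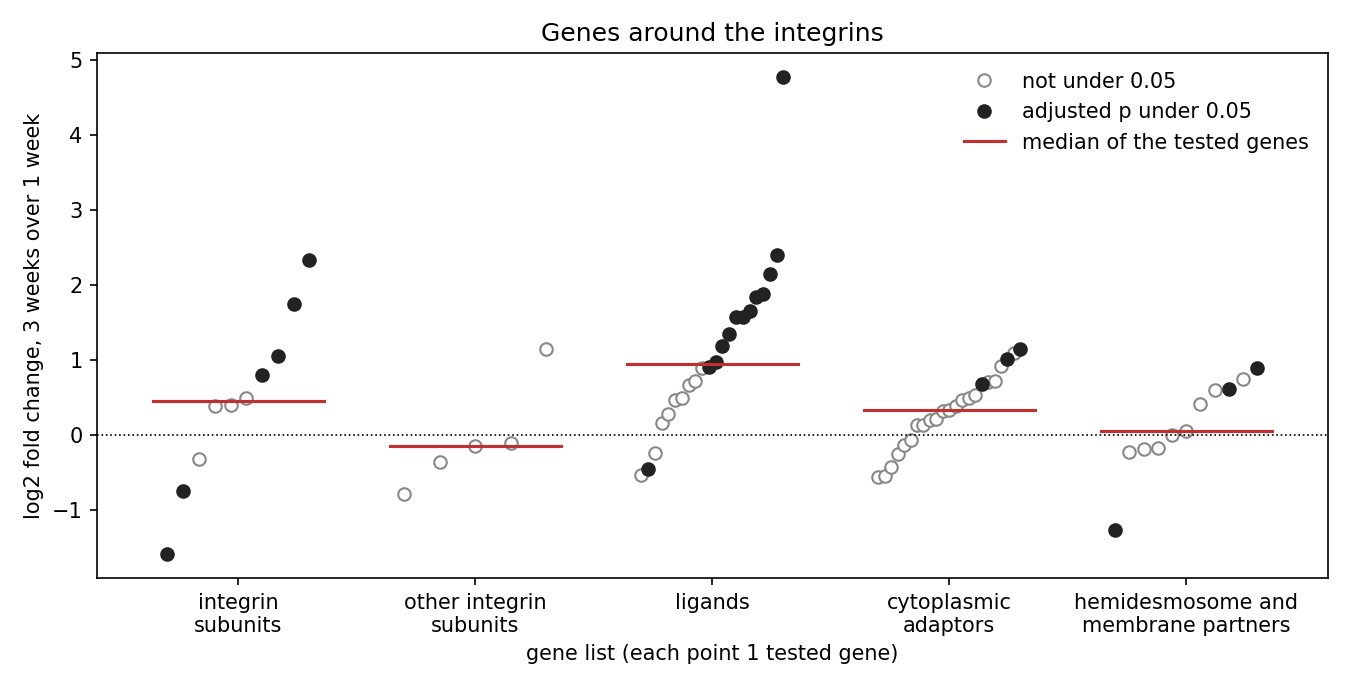
Log2 fold change, 3 weeks over 1 week, of each tested gene of the members and of the 4 lists around them (edgeR), filled where the adjusted p is under 0.05, with the median of each list as a red line. The ligand list has its median at 0.94, the members at 0.45, the adaptors at 0.33, the hemidesmosome and membrane partners at 0.05 and the other subunits at -0.15.

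The adaptors link integrin tails to actin on the inner side of the membrane. Of 23 tested adaptor genes 3 rose (13.0%), near the 15.7% called as higher among all tested genes, and their median log2 fold change was 0.33. Vcl, encoding vinculin, went from 22.9 ± 4.76 to 45.9 ± 19.2 RPKM (log2 fold change 1.15, adjusted p = 0.017, edgeR), and 65.6% of its reads were unique. Bcar1, a scaffold of focal adhesions, went from 18.4 ± 2.54 to 33.0 ± 5.80 RPKM without overlap (log2 fold change 1.01, adjusted p = 0.00165, edgeR). Fermt2, encoding the integrin activator kindlin-2, went from 11.9 ± 1.93 to 16.9 ± 5.48 RPKM (log2 fold change 0.67, adjusted p = 0.049, edgeR). The count was 3 only in the reported fit and ran from 1 to 8 over the alternatives. It was 2 with unique reads, total gene reads, upper-quartile scaling or the replicate number as a block, and 4 by DESeq2. It was 1 without replicate 1 of 1 week, 5 without replicate 3 of 3 weeks and 8 without replicate 4 of 3 weeks. No adaptor was called as lower by edgeR, with 2 at an unadjusted p under 0.05, against 1 by DESeq2 and 2 by limma.

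Of the 11 hemidesmosome and membrane partner genes 2 rose and 1 fell (27.3%), near the 32.8% called among all tested genes, with a median log2 fold change of 0.05. The tetraspanins Cd81 (165 ± 26.3 to 275 ± 95.5 RPKM, log2 fold change 0.89, adjusted p = 0.0156, edgeR) and Cd82 (11.9 ± 0.653 to 16.0 ± 2.37 RPKM, log2 fold change 0.61, adjusted p = 0.018) rose. Slc3a2, encoding the CD98 heavy chain that binds β1 tails, fell from 91.3 ± 25.3 to 33.8 ± 6.05 RPKM (log2 fold change -1.27, adjusted p = 0.00305, edgeR). The genes of the hemidesmosome plaque and its collagen, Plec (log2 fold change -0.19), Dst (0.40) and Col17a1 (0.05), did not pass the test and, like Itgb4, were widely spread at 3 weeks. These 3 genes were named after their values were seen. The count of 2 that rose was 1 without replicate 4 of 1 week, 4 without replicate 4 of 3 weeks, and 0 with either the preparation or the replicate number as a block (edgeR, for Cd81 and Cd82 both).

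The genes whose pattern over the 8 samples was most like that of a member were sought for the largest rise and the largest fall, by the root mean square distance between centred log2 CPM among 12589 other tested genes. For Itgb8 they were Slc25a23 (distance 0.23), Klhdc7a (0.25) and Fbxo32 (0.25), and the nearest integrin member, Itgav, came in place 427 at 0.70. For Itga2 they were Pole (0.34), Gm6793 (0.37) and Nrg1 (0.39), with Itga6 as the nearest member in place 507 at 0.70. By this measure neither gene was most like another subunit. Both were picked for the size of their change, which sets them apart from the other members, so the places are a description only.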

How the data were processed

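Primary tail KCs of C57BL/6 mice (C57BL/6J in the study's text) were cultured for 1 or 3 weeks (4 samples each) and their poly(A) RNA was sequenced as single reads of 59 bases. The authors aligned the reads to GRCm38 in the CLC Genomics Workbench at default settings. They deposited 1 gene table per sample with raw counts of total and unique exon reads, total gene reads and intron reads. The deposited RPKM values, written with decimal commas, were read as numbers. Whether counting used strand is not given in the sources used here.

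Groups were taken from the labels. The test was that of edgeR 4.0.16 (R 4.3.3) on total exon reads (filterByExpr, TMM, glmQLFit and glmQLFTest, Benjamini-Hochberg over 12590 genes, threshold 0.05), without pairing, as the study's statistics name unpaired tests. The study also says that the same batches served both times, and the preparation numbers in the file names, of which 3 occur at both, were used as a block in an alternative. Standard errors and 95% intervals came from the F statistics. Replicates of a time differed by more than sampling noise (chi-square per degree of freedom of at least 15.3 on exon reads), so each was counted separately. Promoters came from RefSeq, and all 10 members had the same position in GENCODE M21. The procedure was tested on simulated data.

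The members and lists were chosen with earlier results of these data known. Named genes are the members, up to 4 genes of each other list that rose and 4 that fell by size of log2 fold change (adjusted p under 0.05, mean of at least 1 RPKM in 1 group), the 3 highest other subunits, and the 3 genes nearest to the member with the largest rise and to that with the largest fall. Exceptions are named in the text. Alternatives were DESeq2 1.42.0, upper-quartile scaling, no filter, at least 10 reads in every sample, unique or total gene reads, limma 3.58.1 on log2(RPKM + 0.1) or log2(RPKM + 1), blocks by replicate or preparation number, and omission of each sample. The log2 differences of the ratios between the times were recomputed with unique reads and without each sample. The remaining computations used Python 3.11.15, and plots were drawn with matplotlib 3.10.9.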

Additional observations from a re-analysis of the deposited data

Results flagged for a closer look

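In 38 sets of 4 samples (the RPKM of the 10 members and the 9 partner ratios at each time), 1 sample stood away from the other 3 by more than Dixon's 95% critical share of the whole range in 5 sets. Chance gives such a gap in about 1 of 20 sets. Itga2 was lower in replicate 1 of 1 week, at 22.8 RPKM against 34.7 in the nearest sample. Itga5 was higher in replicate 2 of 1 week, at 17.9 against 13.2 RPKM. Itgb6 was higher in replicate 3 of 1 week, at 16.9 against 13.5 RPKM. Itgb6 was also higher in replicate 4 of 3 weeks, at 35.5 against 13.4 RPKM, and this sample sets the sign of its log2 fold change. The ratio of Itgav to Itgb1 was higher in replicate 3 of 1 week, at 0.111 against 0.0876.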

How the results depend on the processing

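The calls of Itga5, Itgav, Itgb1 and Itgb8 as higher held in all 18 alternatives, and the call of Itga2 in 17. It was lost with the 3 preparations whose number occurs at both times and the preparation as a block (adjusted p = 0.0576, edgeR). The call of Itga6 held in 11 alternatives, with adjusted p between 0.012 and 0.048 (edgeR, DESeq2 or limma), and was lost in 7 (adjusted p up to 0.107, edgeR), namely with that block (0.1), with the replicate number as a block (0.104) and without 5 single samples. Log2 fold changes turned for Itgb4 (-0.019 without replicate 1 of 3 weeks, range -0.019 to 0.64 without each sample) and Itgb6 (-0.036 without replicate 4 of 3 weeks, range -0.036 to 0.65). For all 9 partner ratios the log2 difference between the times stayed within 1 SD of its value in unique reads and without any single sample. The ratios themselves in unique reads are not given.

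The deviations of samples with the same replicate number correlated at r of -0.23, -0.15, -0.15 and 0.25 for numbers 1 to 4. Of the samples of 1 week, 1 of 4 correlated best with its own number. For preparations 46, 49 and 90 r was -0.23, 0.20 and 0.25, and 3 values cannot show whether batches deviate together. The reported fit was unpaired because the study's statistics name unpaired tests. With the replicate block 1309 genes were higher, in place of 1981, members lower numbered 1, ligands lower 0 and hemidesmosome and membrane partners higher 0. With the 3 preparations the counts were 1316 genes higher, 0 members lower, 0 ligands lower, 5 adaptors higher and 0 hemidesmosome and membrane partners higher.

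On RPKM with limma, 1313 genes (pseudocount 0.1) or 1281 (pseudocount 1) were higher, 29.8% or 29.3% of the calls in place of 48.0%. With either pseudocount there were 7 ligands higher, 1 adaptor higher, 2 adaptors lower and 2 hemidesmosome and membrane partners lower. DESeq2 and upper-quartile scaling each gave 1 adaptor lower. Without each sample in turn, genes higher numbered 1371 to 2284, genes lower 1631 to 2667, members lower 1 to 2, other subunits higher 0 to 1, ligands higher 6 to 13, ligands lower 0 to 1, adaptors higher 1 to 8, and hemidesmosome and membrane partners higher 1 to 4. The cause of these shifts was not tested. Depth limits Itgb8 most, at 50 to 380 reads per sample.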
